A study of Mus musculus with 8 samples.

Results

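Interferon-stimulated genes are described here in muscle stem cells (MuSCs) sorted from mice after loss of muscle innervation. The set holds 36 genes, chosen by gene name from general knowledge of the interferon response and from a theme that the study itself drew from these libraries. All 36 were found among the 55487 genes of the count table, and each had at least 1 count. The denervated group, DEN, was 4 young male C57BL/6 J mice (C57BL/6 in the labels) whose sciatic nerve was cut on 1 side, and the control group, Sham, was 4 such mice that had the operation without the cut. Hind limb MuSCs were collected 21 days later, and every mouse gave 1 library. No transgene or knockout was involved, and both operations were done under anesthesia with the analgesic meloxicam. Cells were gated as α7-integrin+, Sca-1-, CD11b-, CD31- and CD45-, a gate meant to leave out leukocytes and endothelial cells. The study left DEN replicate 1 out after viewing an MDS plot. DEN replicates 2 to 4 were therefore compared with Sham replicates 1 to 4, and DEN replicate 1 is given apart.

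Cells switch these genes on when interferons bind their receptors. Type I interferons act through the kinases Jak1 and Tyk2, which phosphorylate Stat2, and Stat2 then acts with Irf9 in the complex ISGF3. ISGF3 binds a DNA element called the interferon-stimulated response element (ISRE), whereas type II interferon acts mainly through a gamma-activated site (GAS). The products include RNA and DNA sensors, transcription factors of the IRF family, the ubiquitin-like protein Isg15, RNA-binding Ifit and Oas proteins, Ifitm membrane proteins that block virus entry, and GTPases that attack the membranes around pathogens. In muscle, type II interferon is known to come from infiltrating immune cells after injury and to act on myogenic cells. Some members also respond to other inflammatory cytokines, and some are made at a steady level without any interferon.

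The letters that ISGF3 and related factors recognise could be looked for near the gene starts. RefSeq windows on build GRCm38.p6, from 250 bases before to 50 bases after a start, were matched by symbol for 29 of the 36 members. The ISRE core was searched on both strands as GAAANNGAAA, and the GAS as TTCNNNGAA, which reads the same on both strands. The ISRE core was in the window of 18 of these 29 members (62.1%), against 3.99% of the 27025 genes with a window. The GAS was in 8 members (27.6%), against 9.55% of all genes, and 5 members held both, with overlapping letters in *Bst2* and *Ifitm3*. The ISRE core was in 7 of the 12 members that were called higher after DEN (58.3%) and in 10 of the 15 that were tested and not called (66.7%). The core was therefore found in members of both kinds. A few stretches are shown so that both kinds can be compared, with ISRE core matches in capitals and each window read along the gene's own strand. The first 5 genes were higher after DEN and the last 3 were not called.
Isg15, chr4:156200850-156200921, minus strand: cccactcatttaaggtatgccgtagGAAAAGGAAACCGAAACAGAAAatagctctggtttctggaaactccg
Ifit1, chr19:34640760-34640838, plus strand: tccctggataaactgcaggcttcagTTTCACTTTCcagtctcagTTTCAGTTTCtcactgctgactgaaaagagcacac
Ifit3, chr19:34583348-34583441, plus strand: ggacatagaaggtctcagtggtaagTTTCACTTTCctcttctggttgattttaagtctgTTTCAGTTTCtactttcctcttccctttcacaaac
Ifit3b, chr19:34607744-34607837, plus strand: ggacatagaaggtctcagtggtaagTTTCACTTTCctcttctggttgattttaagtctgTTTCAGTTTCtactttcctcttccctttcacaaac
Igtp, chr11:58199497-58199556, plus strand: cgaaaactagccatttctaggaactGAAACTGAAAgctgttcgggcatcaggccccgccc
Rsad2, chr12:26456538-26456597, minus strand: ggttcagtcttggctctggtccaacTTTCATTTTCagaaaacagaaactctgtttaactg
Bst2, chr8:71537562-71537627, minus strand: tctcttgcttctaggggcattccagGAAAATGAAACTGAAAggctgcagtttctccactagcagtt
Stat2, chr10:128270251-128270310, plus strand: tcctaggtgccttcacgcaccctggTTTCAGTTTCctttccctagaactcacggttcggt

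*Isg15* held 3 overlapping matches that begin at position -78 relative to the RefSeq start. *Ifit3* and *Ifit3b*, neighbouring copies on chromosome 19, had the same letters over the stretch shown, set at different distances from their starts. *Rsad2*, *Bst2* and *Stat2* carried the same core and were not called. *Ifitm3* had its 2 matches just past the start, at positions 2 and 19, and *Irf9*, *Ifitm1* and *Ifi47* had no match to either motif although all were higher after DEN. A match is only a description of letters, and binding was not measured.

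The libraries held 26627173 to 34145854 counts. Levels are given as CPM, counts scaled to a common library size after TMM normalisation, and levels of different genes are compared as the deposited RPKM, which also divide by gene length. Of 8 MuSC markers, *Myf5* (0.90 on the log2 scale) and *Cdh15* (0.57) were higher after DEN, and the other 6 were not called. Among those 6 was *Itga7*, the α7-integrin gene of the gate (-0.18), with every DEN library below every Sham library. The sorted cells carried the MuSC factor *Pax7*, also not called, at 132 to 157 CPM in DEN and 105 to 152 CPM in Sham libraries. They also carried markers of smooth muscle and pericytes, cells that bear α7-integrin too, with a summed level of 10709 to 11290 CPM in DEN and 10272 to 13171 CPM in Sham libraries, and of these 8 markers 1 was higher and 2 were lower after DEN. The 8 endothelial markers summed to 162 to 188 CPM in DEN and 173 to 224 CPM in Sham libraries, mostly *Tek*, and none was called. Of 7 tested markers of fibro-adipogenic progenitors, *Col1a1* was higher (0.35 on the log2 scale) and *Dcn* lower (-1.40), with sums of 950 to 1190 CPM in DEN and 1139 to 1302 CPM in Sham libraries. Of 8 Schwann cell markers, *Ngfr* (2.06), *Cdh19* (1.61) and *Sox10* (0.92) were higher and *Mbp* (-1.64) and *S100b* (-1.61) lower, and their sums of 728 to 988 CPM in DEN and 933 to 1265 CPM in Sham libraries were mostly *Pmp22*, which was not called. The 5 erythroid markers were all lower after DEN, summing to 1956 to 2962 CPM in DEN and 5068 to 10196 CPM in Sham libraries. Mitochondrial transcripts made up 2.35 to 2.84% of counts in DEN and 3.67 to 5.99% in Sham libraries. The part of these differences in the results below was not tested. In such bulk RNA, a changed share of cells of one kind and a changed amount of RNA per cell cannot be told apart.

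To find out which members changed after DEN, edgeR's quasi-likelihood test was fitted to all 17454 genes with enough counts, and a gene was called at an adjusted p under 0.05. Of the 36 members, 32 could be tested. The test called 14 of these higher (43.8%), 18 were not called and none was lower, where 5.29% of all tested genes were called higher and 5.32% lower. With DESeq2, which called 7.37% of all genes higher and 7.85% lower, no member was lower either. None was lower at an unadjusted p under 0.05 with edgeR, for which the share over all genes is not given here. The log2 fold change was positive for 30 of the 32 members, with a median of 0.59, while 8701 of all 17454 tested genes had a positive one. In 17 members every DEN library lay above every Sham library (53.1%), against 12.1% of all genes. In no member did every DEN library lie below every Sham library, a pattern that 11.3% of all genes showed. The summed level of the 36 members was 2249, 1851 and 1939 CPM in DEN replicates 2 to 4, against 1299, 1388, 1499 and 1349 CPM in Sham replicates 1 to 4. *Ifitm3* was the largest single part of that sum.

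**Figure D1:**
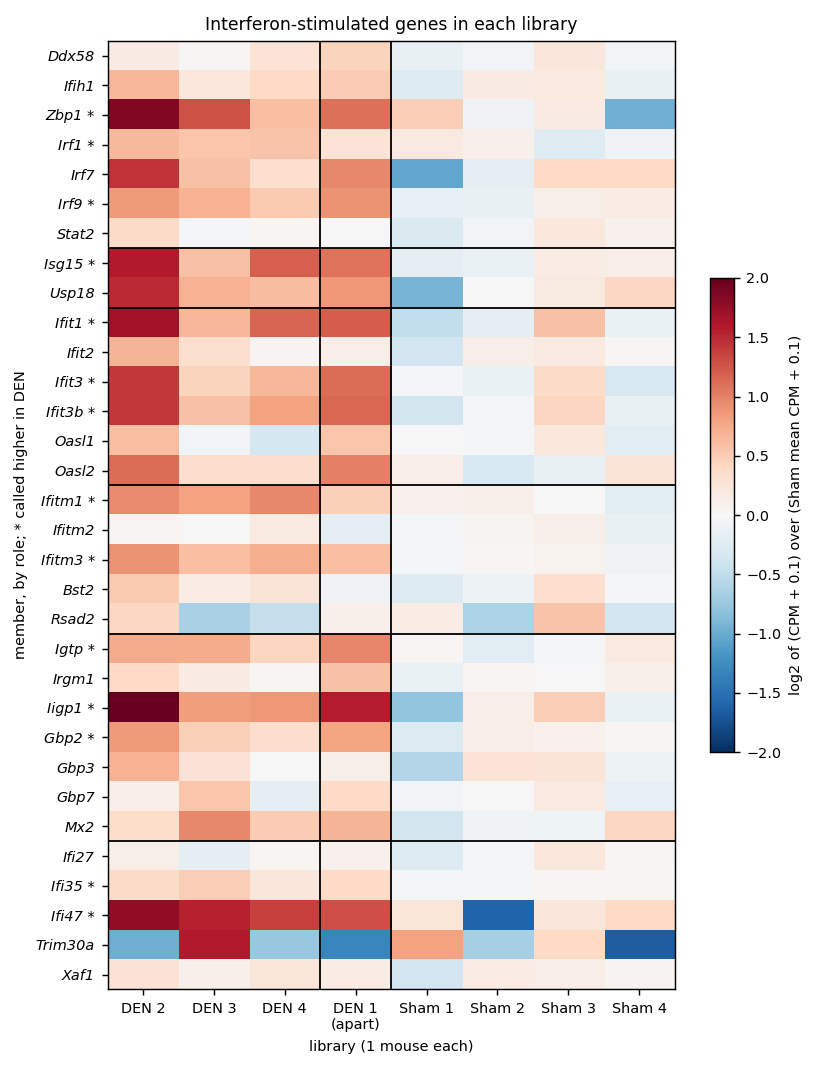
Level of the 32 tested members in each library, as log2 of CPM over the mean of the Sham libraries with 0.1 CPM added to both, with red above and blue below that mean. Columns are libraries, DEN replicates 2 to 4 first, then DEN replicate 1 and the Sham libraries. Rows are members grouped by role between black lines, and an asterisk marks the 14 members called higher. DEN replicate 2 is the reddest column in most rows.

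**Figure D2:**
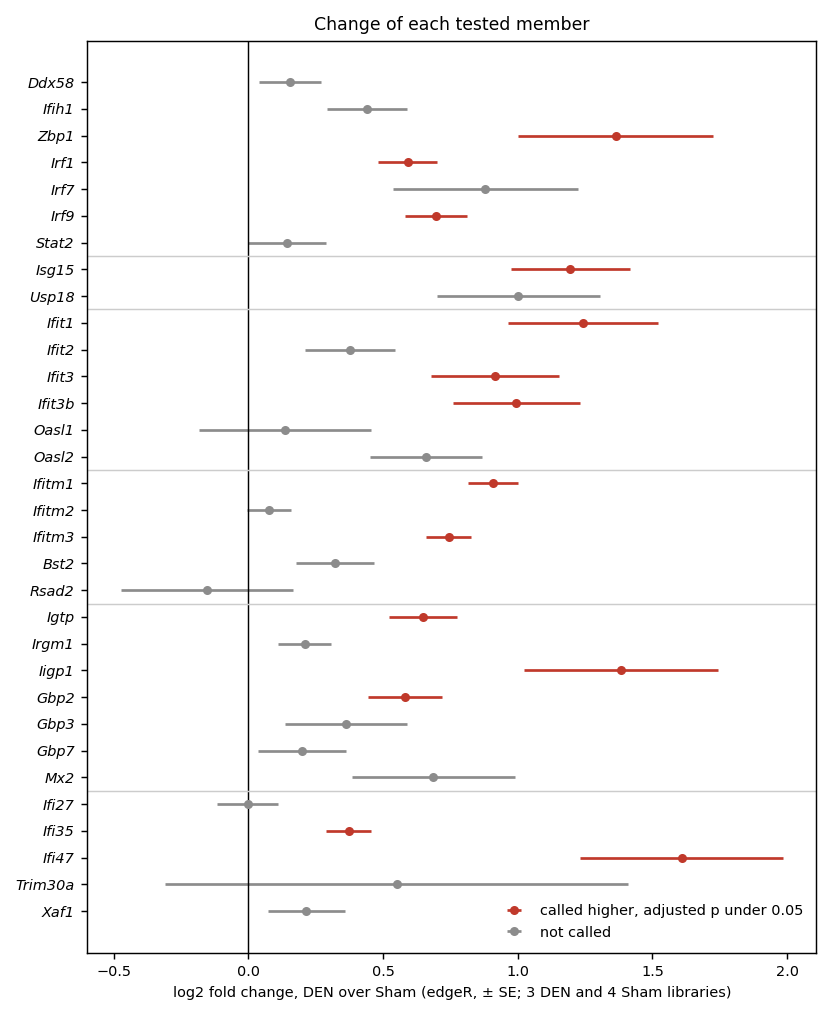
Fitted log2 fold change of each tested member, DEN over Sham, with its standard error, for 3 DEN and 4 Sham libraries. Points in red were called higher at an adjusted p under 0.05, and points in grey were not called. The red points run from 0.37 for *Ifi35* to 1.61 for *Ifi47*.

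Among sensors and signaling genes, 3 of 7 were higher, and the median log2 fold change was 0.59. *Irf9*, the DNA-binding subunit of ISGF3, stood at 57.3, 51.8 and 45.7 CPM in DEN replicates 2 to 4, against 28.5, 28.8, 34.8 and 35.4 CPM in Sham replicates 1 to 4. The lowest DEN library was above the highest Sham library, and the log2 fold change was 0.70 ± 0.11 (SE), with an edgeR adjusted p of 0.00383. *Irf1*, a transcription factor that type II interferon induces strongly, held 49.6, 46.5 and 47.1 CPM in DEN libraries, against 36.0, 33.9, 26.7 and 30.2 CPM in Sham libraries. The DEN libraries lay close together and apart from all Sham libraries (0.59 ± 0.11, adjusted p = 0.00707 with edgeR). *Zbp1*, a sensor of Z-form nucleic acids, was scarcer, at 8.42, 5.62 and 3.47 CPM in DEN and 3.24, 2.16, 2.54 and 1.12 CPM in Sham libraries. Its lowest DEN library was only just above the highest Sham library (1.36 ± 0.36, adjusted p = 0.0382 with edgeR).

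The other sensors and factors were not called. *Irf7*, which amplifies type I interferon production, was at 28.0, 15.4 and 13 CPM in DEN and 4.96, 8.97, 13.5 and 13.5 CPM in Sham libraries. The groups overlapped, since the lowest DEN library was under the highest Sham libraries, and DEN replicate 2 alone was far above them (log2 fold change 0.88 ± 0.34, adjusted p = 0.138 with edgeR). *Ifih1*, the cytoplasmic double-stranded RNA sensor MDA5, did not overlap between groups, yet its difference of 0.44 ± 0.15 missed the threshold (adjusted p = 0.0894 with edgeR). *Ddx58*, the RNA sensor RIG-I, had 28.9 ± 2.39 CPM in DEN and 26.0 ± 3.06 CPM in Sham libraries (SD, n = 3 and 4). *Stat2*, the partner of Irf9 in ISGF3, had 28.9, 21.8 and 22.7 CPM in DEN and 18.2, 21.4, 25.7 and 23.6 CPM in Sham libraries. These values were intermixed (0.14 ± 0.14, adjusted p = 0.612 with edgeR). Within a library, the ratio of *Irf9* to *Stat2* on the log2 scale was 1.08 ± 0.14 in DEN and 0.52 ± 0.11 in Sham libraries (SD, n = 3 and 4), without overlap.

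*Isg15*, a ubiquitin-like protein that is attached to other proteins in the antiviral response, was at 17.6, 8.73 and 13.3 CPM in DEN replicates 2 to 4, against 5.08, 5.27, 6.44 and 6.31 CPM in Sham replicates 1 to 4. The DEN libraries were more spread than the Sham libraries and all were above them (1.20 ± 0.22, adjusted p = 0.00722 with edgeR). *Usp18*, the protease that removes Isg15 and dampens type I interferon signaling, had 20.7, 11.9 and 11.3 CPM in DEN and 3.78, 7.40, 8.32 and 9.81 CPM in Sham libraries. The groups did not overlap, but the difference of 1.00 ± 0.30 missed the threshold (adjusted p = 0.0629 with edgeR). It passed with all 8 libraries (adjusted p = 0.0468) and with DESeq2 (adjusted p = 0.0100).

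In the Ifit and Oas families, 3 of the 6 tested genes were higher, with a median of 0.79, and the 3 were all Ifit genes. Ifit proteins bind viral RNA ends and hinder its translation, and the 4 genes lie on chromosome 19, from *Ifit2* at chr19:34550694-34576419 to *Ifit1* at chr19:34640871-34650009 (GRCm38, plus strand), with *Ifit3* and *Ifit3b* between them. *Ifit1* was at 23.1, 11.4 and 16.1 CPM in DEN, against 5.05, 6.26, 10.7 and 6.52 CPM in Sham libraries. Its lowest DEN library, replicate 3, was close to the highest Sham library, replicate 3 (1.24 ± 0.28, adjusted p = 0.0186 with edgeR). *Ifit3* had 29.9, 15.1 and 17.7 CPM in DEN and 10.9, 10.1, 14.5 and 8.86 CPM in Sham libraries (0.91 ± 0.24, adjusted p = 0.0353), and its copy *Ifit3b* had 15.6, 8.79 and 10.2 CPM in DEN and 4.48, 5.68, 7.83 and 5.19 CPM in Sham libraries (1.00 ± 0.24, adjusted p = 0.0244). The same library, DEN replicate 2, was highest in each. The call of *Ifit3* held in only 2 of the 7 fits that left out 1 library, and without DEN replicate 2 its log2 fold change was 0.57 (adjusted p = 0.138 with edgeR). Of the 75-base stretches of *Ifit3*, 41.2% also occur in *Ifit3b*, and 35.8% of those of *Ifit3b* occur in *Ifit3*, so reads can be placed on the wrong copy and their values are not independent.

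*Ifit2*, the fourth Ifit gene, lies in the same cluster and was not called, at 43.1, 33.5 and 27.9 CPM in DEN and 20.5, 29.2, 30.4 and 27.3 CPM in Sham libraries. The groups overlapped (0.38 ± 0.17, adjusted p = 0.190 with edgeR). *Oasl2*, an Oas-like protein, was above every Sham library in each DEN library without passing the threshold, at 38.7, 22.7 and 22.7 CPM in DEN and 19.5, 14.3, 16.0 and 21.3 CPM in Sham libraries (0.66 ± 0.21, adjusted p = 0.0712). It passed with all 8 libraries (adjusted p = 0.0343) and with DESeq2 (adjusted p = 0.0179). *Oasl1* was near 1 CPM, with 0.91 to 1.86 CPM in DEN and 1.02 to 1.39 CPM in Sham libraries. *Oas1a* and *Oas2*, enzymes that activate RNase L through short adenylate chains, were too low to test. *Oas1a* had 3 to 14 counts in DEN and 7 to 15 counts in Sham libraries, and shares 47.7% of its stretches with *Oas1g*. *Oas2* had 9, 0 and 0 counts in DEN and 0, 1, 0 and 11 counts in Sham libraries, so that 1 library in each group held nearly all of them.

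The Ifitm genes held the most abundant member and the smallest adjusted p-values, and with *Bst2* and *Rsad2* 2 of 5 were higher (median 0.32). They lie on chromosome 7 of GRCm38, *Ifitm2* at chr7:140954837-140955987 (minus strand), *Ifitm1* at chr7:140967221-140969825 (plus strand) and *Ifitm3* at chr7:141009586-141010770 (minus strand). *Ifitm3*, a membrane protein that keeps viruses from fusing in endosomes, was at 1070, 874 and 954 CPM in DEN replicates 2 to 4, against 568, 585, 608 and 547 CPM in Sham replicates 1 to 4. All DEN libraries were well above all Sham libraries (0.74 ± 0.08, adjusted p = 0.000422 with edgeR). *Ifitm1*, a relative found more at the cell surface, had 79.2, 71.8 and 79.7 CPM in DEN, against 43.7, 44.1, 40.7 and 35.5 CPM in Sham libraries. The groups were again far apart, and this was the member with the smallest adjusted p (0.91 ± 0.09, adjusted p = 0.000282 with edgeR). *Ifitm2*, which lies beside *Ifitm1* in the same chromosome 7 cluster, was at 135, 133 and 149 CPM in DEN and 128, 138, 143 and 120 CPM in Sham libraries. The libraries of both groups were intermixed (0.08 ± 0.08, adjusted p = 0.638 with edgeR).

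Per length, *Ifitm3* reached 1423 ± 145 RPKM in DEN and 851 ± 35.1 RPKM in Sham libraries (SD, n = 3 and 4), far above the next members. *Ifitm2* followed at 212 ± 13.2 RPKM in DEN and 202 ± 15.1 RPKM in Sham libraries, then *Ifi27* at 96.9 ± 9.93 RPKM in DEN and 97.1 ± 12.6 RPKM in Sham libraries. *Ifitm1* came next, with 70.2 ± 4.06 RPKM in DEN and 37.5 ± 3.72 RPKM in Sham libraries. Of the 75-base stretches of *Ifitm2*, 41.9% also occur in other annotated genes, mainly a gene that overlaps it on the same strand, so its level is less certain than those of *Ifitm1* and *Ifitm3*. *Bst2* (tetherin), which holds budding viruses at the cell surface, had 44.2, 34.0 and 36.8 CPM in DEN and 25.6, 28.7, 38.6 and 29.9 CPM in Sham libraries. It was not called, and Sham replicate 3 lay above 2 of the 3 DEN libraries (0.32 ± 0.14, adjusted p = 0.197 with edgeR). *Rsad2* (viperin), an enzyme that makes a chain-terminating nucleotide, had 17.5, 8.25 and 9.37 CPM in DEN and 14.5, 8.39, 19.3 and 9.94 CPM in Sham libraries. This was the only tested member besides *Ifi27* with a negative log2 fold change (-0.15 ± 0.32, adjusted p = 0.825 with edgeR), and both groups spanned nearly the same range.

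**Figure D3:**
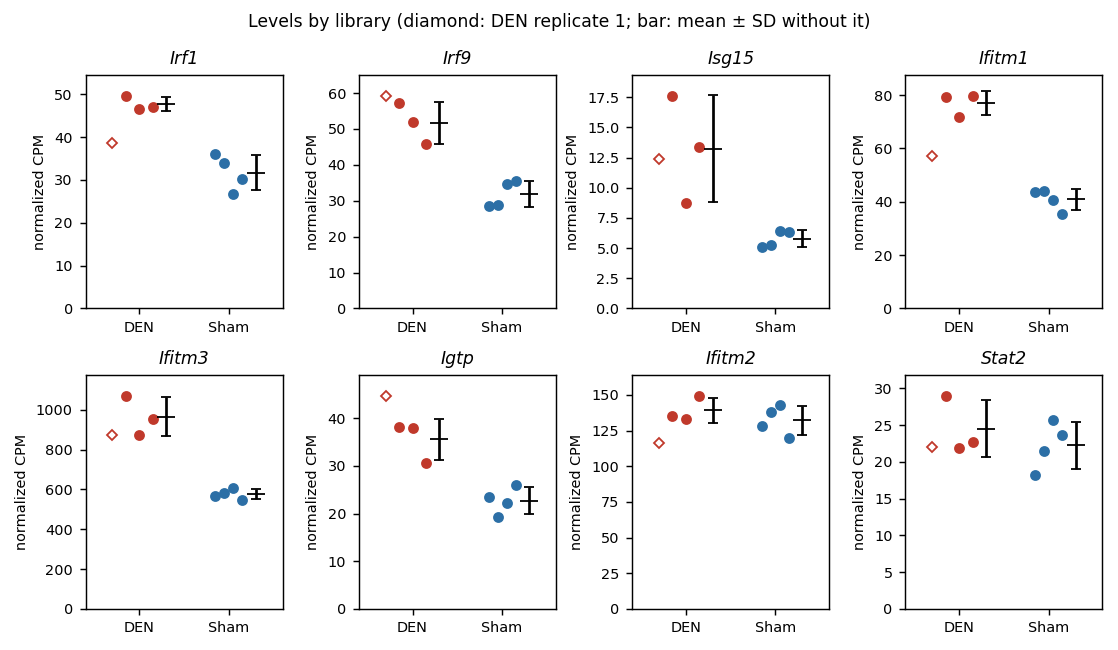
Normalized CPM by library for the 6 members whose calls held without any single library, and for *Ifitm2* and *Stat2*, which were not called. Red circles are DEN replicates 2 to 4, the open diamond is DEN replicate 1, blue circles are Sham replicates 1 to 4, and the black bars show the mean ± SD of the circles. In the 6 called genes all DEN libraries lie above all Sham libraries.

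Of the 7 tested GTPases, 3 were higher, with a median of 0.58. *Igtp*, an immunity-related GTPase that type II interferon induces, had 38.3, 37.9 and 30.6 CPM in DEN, against 23.4, 19.3, 22.2 and 26.0 CPM in Sham libraries. The groups did not overlap (0.65 ± 0.12, adjusted p = 0.00901 with edgeR). *Iigp1*, which coats the vacuole of intracellular parasites, had 9.57, 4.19 and 4.32 CPM in DEN and 1.30, 2.53, 3.31 and 2.1 CPM in Sham libraries. DEN replicate 2 was far above the other DEN libraries, which were still above every Sham library (1.38 ± 0.36, adjusted p = 0.0357 with edgeR). *Gbp2*, a guanylate-binding protein, had 65.6, 50.4 and 46.0 CPM in DEN and 29.9, 39.6, 38.2 and 36.8 CPM in Sham libraries (0.58 ± 0.14, adjusted p = 0.0228 with edgeR). All DEN libraries were above all Sham libraries.

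The other tested GTPases overlapped between groups. *Irgm1*, which regulates other immunity-related GTPases, had 69.1 ± 8.67 CPM in DEN and 59.8 ± 4.14 CPM in Sham libraries (SD, n = 3 and 4). *Gbp3* and *Gbp7*, neighbours of *Gbp2* on chromosome 3, had log2 fold changes of 0.36 ± 0.23 and 0.20 ± 0.16. *Mx2*, a dynamin-like GTPase, had 1.42, 2.19 and 1.58 CPM in DEN and 0.82, 1.02, 1.01 and 1.46 CPM in Sham libraries, where Sham replicate 4 reached past the lowest DEN library (0.69 ± 0.30, adjusted p = 0.185 with edgeR). *Mx1*, its antiviral relative, could not be tested, with 4, 3 and 1 counts in DEN and 1, 0, 1 and 0 counts in Sham libraries. Common laboratory strains such as C57BL/6 are known to carry a defective *Mx1* gene.

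Of the 5 tested genes among the Ifi genes, *Trim30a* and *Xaf1*, *Ifi47* and *Ifi35* were higher, and the median was 0.37. *Ifi47*, another immunity-related GTPase, had the greatest log2 fold change of all tested members. It was at 9.09, 7.74 and 6.84 CPM in DEN, against 3.08, 0.79, 3.06 and 3.46 CPM in Sham libraries. The lowest DEN level was well above the highest Sham level, and Sham replicate 2 stood apart below its group (1.61 ± 0.38, adjusted p = 0.0232 with edgeR). *Ifi35*, which acts in innate immune signaling, had the smallest difference of the called members, at 55.7, 59.7 and 50 CPM in DEN and 41.3, 42.1, 43.8 and 43.1 CPM in Sham libraries. The Sham libraries lay within a narrow range below all DEN libraries (0.37 ± 0.08, adjusted p = 0.0184 with edgeR). Counting was without strand, and 7.54% of the stretches of *Ifi35* are shared with an antisense gene.

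*Ifi27*, the third most abundant member per length, was at 154, 126 and 147 CPM in DEN and 119, 139, 165 and 147 CPM in Sham libraries. The groups covered the same range (-0.003 ± 0.11, adjusted p = 0.992 with edgeR). *Xaf1*, a factor linked to cell death, had 17.8 ± 1.13 CPM in DEN and 15.3 ± 2.44 CPM in Sham libraries (SD, n = 3 and 4). *Trim30a* held 5, 47 and 6 counts in DEN and 27, 8, 17 and 2 counts in Sham libraries, a spread within groups wider than the difference between them. *Ifi44* was not tested. It had 24, 6 and 6 counts in DEN and 0, 0, 2 and 3 counts in Sham libraries, so the DEN libraries were above all Sham libraries at counts too low for the filter.

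Members that lie side by side were also compared with each other. Log2 ratios within a library were compared for 17 pairs of tested members within 500 kb of each other and for *Irf9* with *Stat2*, a choice made after the values were seen. An exact two-sided permutation test of 3 against 4 libraries cannot go below p = 0.0571, and 6 of the 18 pairs reached that value (adjusted p = 0.171 over the 18 pairs), so none could pass. The log2 ratio of *Ifitm1* to *Ifitm2* was -0.86 ± 0.07 in DEN and -1.69 ± 0.12 in Sham libraries (SD, n = 3 and 4; exact permutation p = 0.0571). That of *Ifitm2* to *Ifitm3* was -2.79 ± 0.17 in DEN and -2.13 ± 0.05 in Sham libraries, also without overlap. The log2 ratio of *Ifitm1* to *Ifitm3* was -3.65 ± 0.09 in DEN and -3.82 ± 0.12 in Sham libraries, and the groups overlapped. The log2 ratio of *Ifit2* to *Ifit3b* was 1.62 ± 0.27 in DEN and 2.23 ± 0.20 in Sham libraries, without overlap. The ratio of *Gbp2* to *Gbp3* overlapped between the groups.

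**Figure D4:**
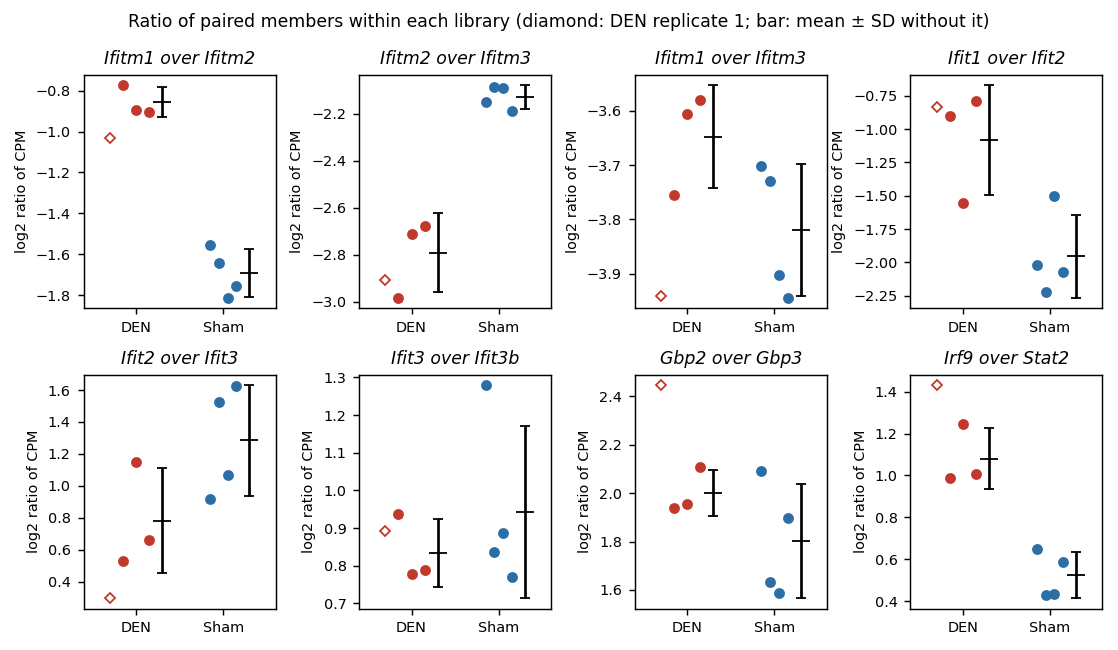
Log2 ratio of CPM of paired members within each library, for 7 pairs that lie in one cluster and for *Irf9* over *Stat2*. Red circles are DEN replicates 2 to 4, the diamond is DEN replicate 1, blue circles are Sham libraries, and bars are the mean ± SD of the circles. The axes do not start at 0. Circles of the groups are apart for *Ifitm1* over *Ifitm2*, *Ifitm2* over *Ifitm3* and *Irf9* over *Stat2*.

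The 3 DEN libraries did not contribute evenly. DEN replicate 2 was the highest of them in 25 of the 32 tested members and in 12 of the 14 called ones. The same count was not made over all genes, so whether this is particular to the members was not tested. The median log2 ratio of the 14 called members to their Sham mean was 1.19 in DEN replicate 2, 0.64 in replicate 3 and 0.70 in replicate 4. Without DEN replicate 2, only 6 of the 14 remained called, namely *Irf1*, *Irf9*, *Isg15*, *Ifitm1*, *Ifitm3* and *Igtp*, where 3.19% of all genes were called higher. The 8 that were lost kept their direction, for example *Ifit1* at 0.95 (adjusted p = 0.0821 with edgeR) and *Iigp1* at 0.88 (adjusted p = 0.166). The 6 also held their calls without any other single library. Of the other 8, *Gbp2* lost its call only without DEN replicate 2. *Zbp1*, like *Ifit3*, kept its call in 2 of the 7 fits that left out 1 library, *Iigp1* in 3, and *Ifit1*, *Ifit3b*, *Ifi35* and *Ifi47* in 4 each. Without Sham replicate 2, 8 of the 14 remained called, and the share of all genes called in that fit is not given here. Over all genes, too, every fit that left out 1 library called fewer genes higher than the main fit.

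DEN replicate 2 also stood apart in markers of macrophages and myeloid cells, which express many of these members. Their 13 markers summed to 131, 8.38 and 6.95 CPM in DEN replicates 2 to 4, against 43.6, 20.3, 54.1 and 17.4 CPM in Sham replicates 1 to 4, and 8 of them were tested, of which *C1qb* alone was called, at 15.6, 0.44 and 0.25 CPM in DEN and 0.10 to 0.34 CPM in Sham libraries. *Lyz2*, a lysozyme of these cells, was at 59.5, 1.62 and 0.56 CPM in DEN and 38.3, 16.2, 47.7 and 11.8 CPM in Sham libraries. The defining markers *Ptprc* (CD45), *Itgam* (CD11b) and *Adgre1* were each at 2.30 CPM or less in every library. That highest value was *Adgre1* in DEN replicate 2, against 0.03 and 0.77 CPM in DEN replicates 3 and 4 and 0 to 0.24 CPM in Sham libraries. *Csf1r*, *C1qa*, *C1qc* and *Mrc1* were at 9.91, 7.34, 12.1 and 7.10 CPM in DEN replicate 2 and at 1.32 CPM or less in every other library. *Ptprc* and *Cd14* were not highest in DEN replicate 2. Most of each Sham sum was *Lyz2*. The other 12 markers, summed after the values were seen, came to 71.1, 6.76 and 6.39 CPM in DEN replicates 2 to 4, against 5.29, 4.14, 6.33 and 5.67 CPM in Sham replicates 1 to 4. Without *Lyz2*, then, DEN replicates 3 and 4 were just above the Sham libraries, whereas with it they were below them. The largest single part of the smaller sum in DEN replicates 3 and 4 was *Cd14*, which was not called. It was at 4.60, 4.70 and 2.81 CPM in DEN replicates 2 to 4 and 3.30, 2.27, 2.02 and 2.07 CPM in Sham replicates 1 to 4. Whether that order holds without *Cd14* was not tested. Sham replicate 3 had the highest sum of its group with and without *Lyz2*. It was also the highest of its group in 18 of the 32 tested members, which was not counted over all genes. The part of these markers in the members' levels was not tested. The 11 lymphocyte markers summed to 5.96 to 8.22 CPM in DEN and 3.39 to 5.88 CPM in Sham libraries, with 5 of them at 0 counts in all libraries, and the 8 dendritic cell markers summed to 0.19 to 2.13 CPM in DEN and 0.31 to 0.42 CPM in Sham libraries.

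**Figure D5:**
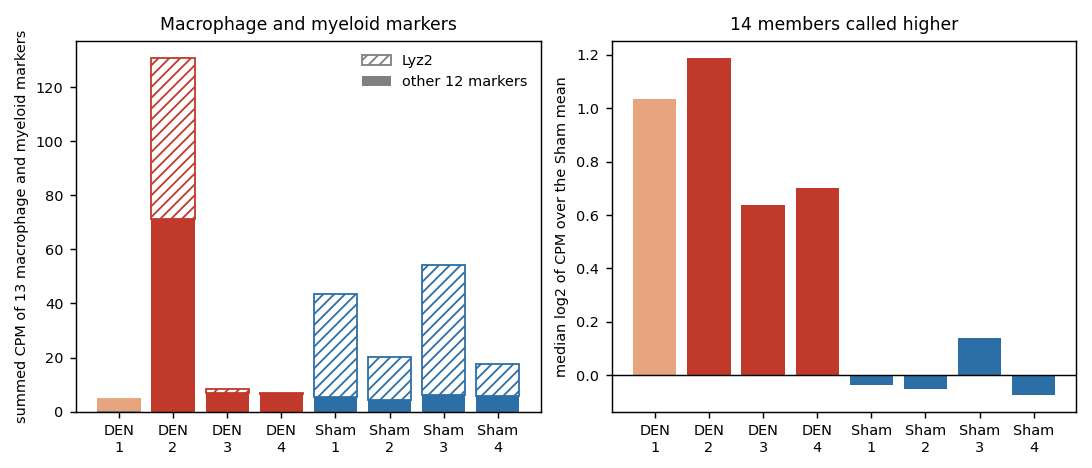
Left, summed CPM of 13 macrophage and myeloid markers in each library, with *Lyz2* hatched and the other 12 filled. Right, median over the 14 called members of log2 CPM over the Sham mean, which includes the Sham library itself. Pale red is DEN replicate 1, red DEN replicates 2 to 4 and blue Sham. DEN replicate 2 is highest in both panels, and most of each Sham bar on the left is *Lyz2*. DEN replicate 1 has 4.73 CPM on the left and is next to highest on the right (1.04).

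DEN replicate 1 took no part in the calls. It lay above every Sham library in all 14 called members and in 24 of the 32 tested ones. How often it did so over all genes was not counted, so these counts have no background. *Irf9* was at 59.2 CPM and *Isg15* at 12.3 CPM there, and *Ifit1* at 16.6 CPM, which is within the range of the other DEN libraries or above it. It was lower than the other DEN libraries in 3 of the 14, namely *Ifitm1* at 57 CPM, *Irf1* at 38.5 CPM and *Ifi47* at 6.52 CPM. Its macrophage and myeloid markers summed to 4.73 CPM, and to 4.69 CPM without *Lyz2*, a value within the Sham range of that smaller sum. With all 8 libraries, 16 of the 31 members tested were higher and none lower, where 5.73% of all tested genes were called higher and 5.8% lower. The 16 were the 14 named above with *Usp18* and *Oasl2*.

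Genes that act before and beside the members were counted from lists of 114 genes, also chosen with earlier results known. Of 21 interferon genes, 17 had no count in any library. *Ifnz*, a type I interferon of rodents, was the one gene with enough counts to test, at 1.37 ± 0.17 CPM in DEN and 1.38 ± 0.27 CPM in Sham libraries (SD, n = 3 and 4; log2 fold change -0.01 ± 0.27, adjusted p = 0.984 with edgeR). *Ifnk*, an interferon of skin, had at most 4 counts in a library. Of 13 receptor and Jak-Stat genes, 12 were tested, 2 were higher (16.7%) and none was lower, where 5.29% of all tested genes were higher and 5.32% lower. *Ifngr1*, the ligand-binding chain of the type II interferon receptor, was at 482, 459 and 403 CPM in DEN, against 329, 305, 301 and 297 CPM in Sham libraries. The groups were far apart (0.54 ± 0.08, adjusted p = 0.00198 with edgeR). *Socs1*, an inhibitor of Jak kinases that interferons induce, had 13.2, 12.9 and 19.8 CPM in DEN and 11.4, 8.74, 7.79 and 8.14 CPM in Sham libraries, without overlap (0.76 ± 0.19, adjusted p = 0.0307).

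Of 19 other sensors and adaptors, 17 were tested, 2 were higher (11.8%, against 5.29% of all tested genes) and none was lower. *Sting1*, the adaptor of the cytosolic DNA sensor, was at 26.6, 25.8 and 24.7 CPM in DEN, against 10.5, 10.1, 10.7 and 11.8 CPM in Sham libraries. Each group was tight and the groups far apart (1.25 ± 0.11, adjusted p = 0.000108 with edgeR), and DEN replicate 1 was between them at 17.5 CPM. *Myd88*, an adaptor of Toll-like receptors, had 67.4 ± 6.08 CPM in DEN and 52.4 ± 3.05 CPM in Sham libraries (SD, n = 3 and 4; 0.36 ± 0.09, adjusted p = 0.0247 with edgeR). Of 61 further interferon-stimulated genes outside the member list, 48 were tested, 9 were higher (18.8%) and none was lower, with a median log2 fold change of 0.35. The 4 with the smallest adjusted p were the GTPases *Tgtp2* (1.55 ± 0.24) and *Tgtp1* (1.42 ± 0.32), *Apol9b* (1.28 ± 0.31) and *Rtp4* (1.08 ± 0.26). *Tgtp1* and *Tgtp2* are near-identical copies, so their reads may be split between them. Over the 114 genes, 13 of the 78 tested were higher (16.7%) and none lower, where 5.29% of all tested genes were higher and 5.32% lower, and 60 had a positive log2 fold change (76.9%, against 49.9% of all tested genes). The count of 13 fell to 4 without DEN replicate 2, where 3.19% of all genes were called higher. It fell to 6 without DEN replicate 3 or Sham replicate 2, and to 8 without Sham replicate 3 or 4. Those fits also called fewer of all genes higher than the main fit. DESeq2, which called 7.37% of all genes higher, gave 22 higher and 1 lower.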

How the data were processed

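RNA-seq was run on sorted MuSCs of 4 DEN and 4 Sham mice. The authors trimmed reads with cutadapt 2.1, aligned them to GRCm38 (Ensembl annotation) with TopHat2 2.1.0, keeping 1 alignment per read, and deposited counts per gene from featureCounts 1.6.5 made without strand. They also deposited RPKM, for which the gene length is not named, and RPM, which were not used here. Keeping 1 place for a read that fits several copies can move counts between paralogs such as *Ifit3* and *Ifit3b*.

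Groups came from the sample titles. Counts were tested with edgeR 4.0.16 (R 4.3.3) by the quasi-likelihood F test after filterByExpr (minimum count 10, minimum total 15) and TMM scaling, over 17454 genes in 3 DEN and 4 Sham libraries, with Benjamini-Hochberg adjustment and calls at an adjusted p under 0.05. CPM were computed on TMM library sizes, and an SE is the fitted log2 fold change divided by the square root of F. The edgeR p-values weigh the difference between groups against the spread between mice within a group. The code was tested on simulated data. RefSeq windows (GRCm38.p6) were searched for motifs, and 75-base stretches of exons, the read length, were compared between genes every 5 bases. Ratios within a library were compared with exact two-sided permutation tests (scipy 1.17.1).

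The members, the 4 pathway lists and the 9 marker lists were chosen with earlier results of these data known. Every member is named. Of each pathway list, up to 4 called genes with the smallest adjusted p are named, or up to 2 with the highest CPM where none was called, and of marker lists some defining genes, genes that were called and genes that carry most of a sum, chosen after their values were seen. *Ifi44*, *Mx1*, *Oas1a* and *Oas2* had too few counts to test. Alternatives were DESeq2 1.42.0, RLE size factors, no filter on low counts, all 8 libraries, leaving out each library, a replicate block, and a window of the 250 bases before the start.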

Additional observations from a re-analysis of the deposited data

Results flagged for a closer look

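For each of the 32 tested members, the 4 DEN and the 4 Sham libraries were each searched for a library whose gap to the nearest other exceeded Dixon's 95% critical share of the group's range. This marked 3 of 64 groups, where chance marks about 1 in 20. *Stat2* was at 28.9 CPM in DEN replicate 2, above 22.7 CPM in the next DEN library. *Trim30a* was at 1.49 CPM in DEN replicate 3, above 0.21 CPM in the next DEN library. *Ifi47* was at 0.79 CPM in Sham replicate 2, below 3.06 CPM in the next Sham library. DEN replicate 1 was marked in none.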

How the results depend on the processing

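No member was called lower under any alternative, and the 14 called members were also called with DESeq2, with RLE size factors, without the filter and with all 8 libraries. Leaving out 1 library gave 6 to 13 members higher (lowest without DEN replicate 2), 4 to 10 pathway genes higher and 0 to 1 lower, and 575 to 900.0 genes higher and 523 to 914 lower over all genes. DESeq2 called 22 pathway genes higher and 1 lower. No pairing by replicate number was seen, as deviations of same-numbered libraries from their group means correlated at 0.01, 0.02 and -0.11. With so few libraries these values cannot exclude a pairing. With a replicate block over replicates 2 to 4 there were 8 members and 6 pathway genes higher, from 3 libraries a group. The share of all genes called with the block is not given here, so these 2 counts have no background. Members near 0 changed sign: *Ifi27* was at 0.020 with all 8 libraries and -0.083 to 0.078 with 1 library left out, *Oasl1* at -0.21 to 0.34, *Rsad2* at -0.56 to 0.095, *Gbp7* at -0.022 to 0.36 and *Trim30a* at -1.16 to 1.00 (log2 fold changes, none called). The log2 ratio of *Irf7* to *Ifitm1* differed by 0.14 with all 8 libraries, added after seeing the data, against -0.01 without DEN replicate 1. The cause was not tested in any of these. The ISRE core was in 15 members and the GAS in 6 in the 250 bases before the start. The low counts of *Mx1*, *Oas2* and *Ifi44* did not pass the filter, so the main fit did not test them for a difference.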
